A study of Mus musculus with 32 samples.

Results

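The genes described here are 10 well known targets of Wnt/beta-catenin signaling, Notum, Axin2, Nkd1, Rnf43, Znrf3, Lgr5, Lef1, Tcf7, Sp5 and Myc, chosen by name from the 22329 genes of the table. They were read in 4 groups of untreated libraries of MC38, a mouse line labelled as colon adenocarcinoma. The groups were 12 subcutaneous tumors of MC38-resistant cells, 13 subcutaneous tumors of MC38 parental cells, 5 libraries of cultured MC38-resistant cells and 2 libraries of cultured MC38 parental cells. The resistant line is resistant to anti-PD-1, an antibody against a T cell checkpoint receptor, and all tumors grew in C57BL6/J mice that received no treatment. The labels name a single resistant line and do not say whether it is a clone or whether the cultured libraries came from separate cultures. Sample titles begin with GPN for tumors and with MJ for cultures, so tumor against culture and the series of the library cannot be told apart. Levels are in TPM, a length-scaled share of the library, and changes are log2 differences of TPM + 1, which understate the change of low genes.

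Wnt ligands bind Frizzled receptors together with Lrp5 or Lrp6. In the absence of ligand, a destruction complex holding Axin, Apc, the kinase Gsk3 and casein kinase marks beta-catenin for degradation, and in its presence beta-catenin builds up and works with the DNA-binding factors of the TCF and LEF family. Several targets act back on the pathway. Notum is a secreted enzyme that takes the lipid off Wnt ligands, Axin2 is a scaffold of the destruction complex, Nkd1 binds Dishevelled, and Rnf43 and Znrf3 are membrane ubiquitin ligases that remove Frizzled from the cell surface. Lgr5 is a receptor for R-spondins and a marker of intestinal stem cells. Lef1 and Tcf7 encode factors of the TCF and LEF family itself and are also expressed in T cells, Sp5 encodes a zinc finger transcription factor, and Myc encodes a driver of cell growth.

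The colon label was checked against 7 markers of colon epithelium, among them Epcam, Cdh1, Vil1 and Cdx2. Their summed level was 0.861 to 6.31 TPM in resistant tumors, 2.05 to 10.5 TPM in parental tumors, 0.0473 to 0.241 TPM in resistant culture and 2.30 to 4.18 TPM in parental culture, so these markers were low throughout. Genes at 1 TPM or more numbered 11573 to 12809 per tumor and 10470 to 10978 per cultured library. The table gives no read totals, so depth is unknown.

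Promoter windows were available from RefSeq (build GRCm38.p6, 250 bases before to 50 after a gene start) for 6 of the 10 genes, in 11 windows. They were searched on both strands for CTTTGA and CTTTGT, letters that TCF and LEF factors are known to bind. The windows of Sp5 (chr2:70474673-70474972, plus strand) and of 1 of the 4 Lef1 starts (chr3:131156044-131156343, plus strand) held 5 and 3 matches. Axin2 (chr11:108920099-108920398, plus strand) and Nkd1 (chr8:88527383-88527682, plus strand) are shown beside them because their levels moved with Sp5 across parental tumors, and neither window held a match. Capitals mark the matches, in the direction in which the gene is read, so that those on the other strand read TCAAAG or ACAAAG.
Sp5: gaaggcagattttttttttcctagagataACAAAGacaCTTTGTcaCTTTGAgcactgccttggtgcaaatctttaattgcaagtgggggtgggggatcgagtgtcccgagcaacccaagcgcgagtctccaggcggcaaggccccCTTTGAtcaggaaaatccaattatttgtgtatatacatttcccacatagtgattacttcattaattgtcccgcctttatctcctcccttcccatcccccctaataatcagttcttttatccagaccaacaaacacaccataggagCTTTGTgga
Lef1: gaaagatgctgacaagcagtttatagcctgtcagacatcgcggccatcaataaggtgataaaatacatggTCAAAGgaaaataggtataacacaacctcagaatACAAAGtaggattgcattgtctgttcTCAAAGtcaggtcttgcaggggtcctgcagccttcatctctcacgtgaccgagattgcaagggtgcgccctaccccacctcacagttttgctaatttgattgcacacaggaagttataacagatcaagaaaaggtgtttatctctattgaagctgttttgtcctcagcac
Axin2: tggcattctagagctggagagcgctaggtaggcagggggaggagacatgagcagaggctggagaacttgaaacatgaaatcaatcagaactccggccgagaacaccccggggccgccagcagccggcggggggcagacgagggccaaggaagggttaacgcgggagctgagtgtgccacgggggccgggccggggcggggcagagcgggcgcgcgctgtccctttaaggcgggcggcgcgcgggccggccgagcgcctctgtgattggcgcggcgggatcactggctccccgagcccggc
Nkd1: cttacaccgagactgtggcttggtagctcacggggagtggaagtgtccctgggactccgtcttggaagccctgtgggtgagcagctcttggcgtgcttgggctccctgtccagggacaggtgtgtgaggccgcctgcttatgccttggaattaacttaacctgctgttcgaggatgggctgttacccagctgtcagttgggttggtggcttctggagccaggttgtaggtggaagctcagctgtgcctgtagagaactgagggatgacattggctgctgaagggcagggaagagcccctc
Of all 32851 mouse windows of this length, 31.2% held at least 1 match, 1.14% held at least 3 and 0.0365% held at least 5. The 2 windows of Tcf7, the 2 of Rnf43 and the other 3 of Lef1 held none. A match is a description of the letters, and binding was not measured.

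In tumors, the resistant line had lower levels of Notum, Tcf7, Myc and Lef1 than the parental line, while no member was higher. Of the 6 members high enough to be tested, 5 fell in resistant tumors, 0 rose and 1 did not pass (limma on log2(TPM + 1), Benjamini-Hochberg adjusted over all 12095 genes tested, threshold 0.05). Over all genes, 13.9% fell and 16.3% rose. The median log2 difference was -0.57 over the 6 members and 0.04 over all genes. Notum reached 1 TPM in 11 of 13 parental tumors and in 2 of 12 resistant tumors. It entered the test through the parental tumors, where it is high, so its place in this count and median says little about direction.

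**Figure D1:**
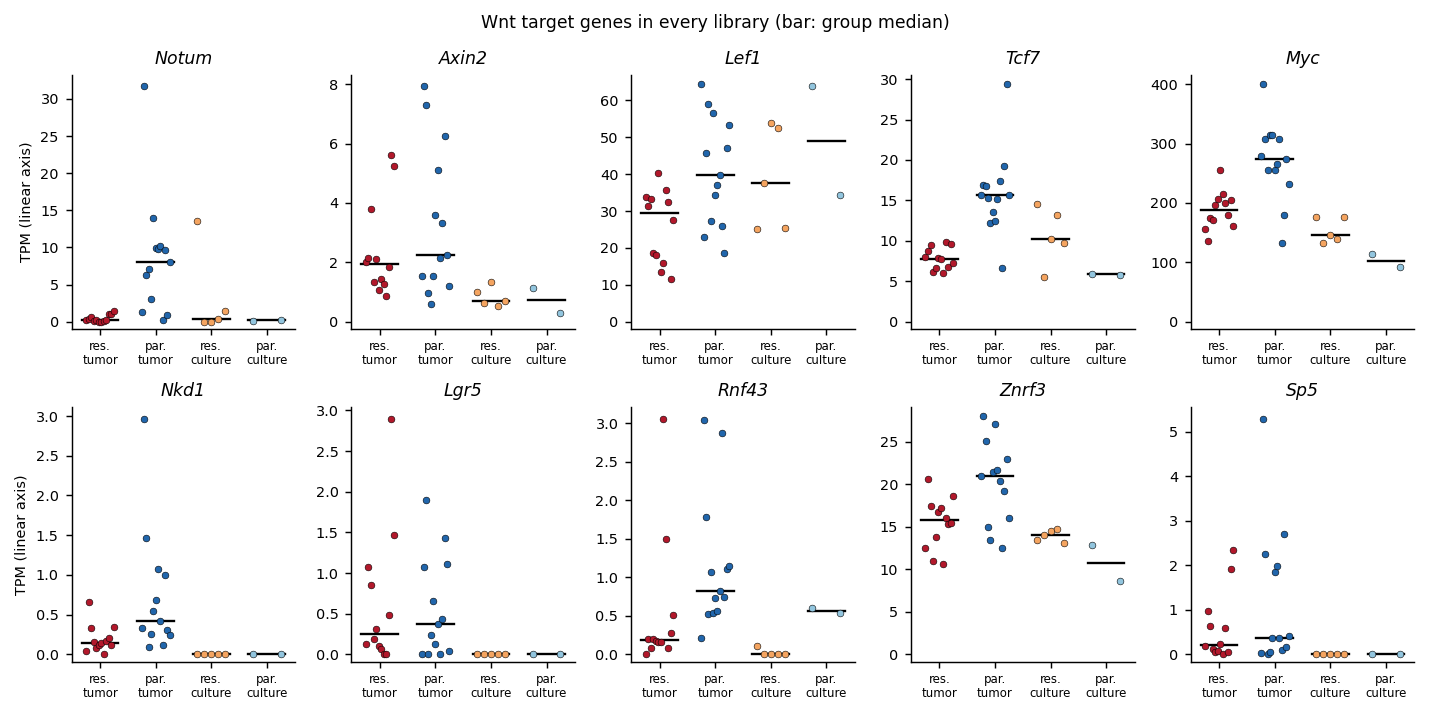
TPM of each of the 10 Wnt targets (linear axis) in every library of resistant tumors, parental tumors, resistant culture and parental culture, with a bar at the group median. Notum stays at or under 1.38 TPM in resistant tumors and reaches 31.7 TPM in parental tumors, and Nkd1, Lgr5 and Sp5 are listed at 0 in all cultured libraries.

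Notum had the largest log2 difference of the 6. It lay between 0 and 1.38 TPM in resistant tumors with a median of 0.252 TPM, and was listed at 0 in 2 of the 12. In parental tumors it lay between 0.269 and 31.7 TPM, with a median of 8.07 TPM. All 12 resistant tumors were below the parental mean of 8.64 TPM and 7 were below every parental tumor, but the groups overlapped, because parental tumors 10, 12 and 1 were at 0.269, 0.905 and 1.35 TPM. The log2 difference was -2.33 ± 0.37 (SE, limma adjusted p = 2.91e-05).

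Tcf7 was 7.82 ± 1.33 TPM in resistant tumors (SD, n = 12) and 15.8 ± 5.13 TPM in parental tumors (n = 13), with a log2 difference of -0.89 ± 0.14 (SE, limma adjusted p = 4.07e-05). Resistant tumors lay between 6.06 and 9.81 TPM with a median of 7.80 TPM, and parental tumors between 6.59 and 29.4 TPM with a median of 15.6 TPM. Parental tumor 10 was the only parental tumor inside the resistant range, since the next lowest parental tumor was at 12.2 TPM. Lef1, the related factor, was 26.0 ± 9.85 TPM in resistant tumors, between 11.5 and 40.4 TPM with a median of 29.5 TPM. In parental tumors Lef1 was 40.9 ± 14.8 TPM, between 18.7 and 64.4 TPM with a median of 39.7 TPM. The groups overlapped widely, with a log2 difference of -0.65 ± 0.21 (SE, limma adjusted p = 0.0231).

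Myc was the most abundant of the 10. It was 188 ± 32.04 TPM in resistant tumors, between 135 and 256 TPM with a median of 188 TPM, and 271 ± 66.4 TPM in parental tumors, between 133 and 401 TPM with a median of 275 TPM. No resistant tumor lay above the parental mean, but parental tumor 10, at 133 TPM, lay below all resistant tumors and parental tumors 11 and 13, at 179 and 231.9 TPM, lay within the resistant range. The log2 difference was -0.50 ± 0.13 (SE, limma adjusted p = 0.00458).

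Of the receptor-removing ligases, Znrf3 was 15.4 ± 3.02 TPM in resistant tumors, between 10.7 and 20.7 TPM with a median of 15.8 TPM. In parental tumors it was 20.3 ± 4.97 TPM, between 12.6 and 28.1 TPM with a median of 21.0 TPM. The log2 difference was -0.36 ± 0.13 (SE, limma adjusted p = 0.0372). This call was the least stable: it ended with no filter (adjusted p = 0.0573), in a rank-sum test (0.0523), and on leaving out any of parental tumors 1, 2, 3, 6, 7, 8 and 12 or resistant tumors 1, 4, 5 and 8 (adjusted p between 0.0509 and 0.0700). Rnf43 was too low to be tested, at a median of 0.185 TPM in resistant tumors (0 to 3.06 TPM) and 0.829 TPM in parental tumors (0.218 to 3.05 TPM). Without a filter its log2 difference was -0.55 with an adjusted p of 0.0856 (limma), and 8 of 12 resistant tumors lay below every parental tumor.

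Axin2, the scaffold often used as a readout of the pathway, was not called. It lay between 0.852 and 5.60 TPM in resistant tumors with a median of 1.94 TPM, and between 0.579 and 7.94 TPM in parental tumors with a median of 2.25 TPM. The log2 difference was -0.27 ± 0.28 (SE, limma adjusted p = 0.478). Nkd1, Lgr5 and Sp5 were lower still. Nkd1 had a median of 0.145 TPM in resistant tumors (0 to 0.656 TPM) and 0.426 TPM in parental tumors (0.0952 to 2.96 TPM). Sp5 had a median of 0.222 TPM in resistant tumors (0 to 2.35 TPM) and 0.363 TPM in parental tumors (0 to 5.28 TPM), and Lgr5 a median of 0.252 TPM in resistant tumors (0 to 2.89 TPM) and 0.371 TPM in parental tumors (0 to 1.90 TPM). With no filter, limma gave log2 differences of -0.44 for Nkd1 (adjusted p = 0.0518), -0.31 for Sp5 (0.529) and 0.02 for Lgr5 (0.968).

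Markers of other cell types, the mitochondrial share and a measure of base composition were set beside these values. Mitochondrially encoded genes took 7.20 to 14.4% of TPM in resistant tumors (mean 10.01%) and 4.65 to 10.6% in parental tumors (mean 7.19%). In bulk tissue, fewer cells of a type and less RNA per cell cannot be told apart. The 4 B cell markers summed to 0.552 to 4.12 TPM in resistant tumors and 4.61 to 20.5 TPM in parental tumors, with both tested markers lower. In culture they summed to 0.267 to 2.85 TPM in the resistant line and 0.826 to 1.23 TPM in the parental line. These sums therefore do not count host B cells alone. Of 4 fibroblast markers, Dcn and Col1a1 were higher in resistant tumors, and the summed level was 226 to 1280 TPM in resistant and 58.0 to 921 TPM in parental tumors. In culture the 4 summed to 256 to 828.8 TPM in the resistant and 32.2 to 59.5 TPM in the parental line. The sums in tumors therefore do not count host fibroblasts alone. Of the 4, Lum was listed at 0 in all cultured libraries. Of 3 skeletal muscle markers, Ckm and Myh4 were higher, with sums of 0.282 to 24.2 TPM in resistant and 0.535 to 11.6 TPM in parental tumors. The 6 T cell markers summed to 8.66 to 29.3 TPM in resistant and 5.87 to 47.6 TPM in parental tumors, and none of the 4 tested was called. The part of B cells, fibroblasts, muscle and the mitochondrial share in the members' differences was not tested.

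A GC index was computed per library by subtracting the median log2 level of 1274 genes poor in GC from that of 2146 genes rich in GC, after each gene had been centred on its mean over tumors. It lay between -0.519 and 0.258 in resistant tumors, with a median of -0.26, and between -0.267 and 0.809 in parental tumors, with a median of -0.02. Parental tumors 2, 3, 7 and 8 had an index above 0.5, which no resistant tumor reached. With the index in the fit, Notum (-1.71, limma adjusted p = 0.000268), Tcf7 (-0.82, 0.000255), Myc (-0.46, 0.0152) and Lef1 (-0.71, 0.0234) remained lower in resistant tumors. Without those 4 parental tumors the values were -1.93 for Notum (0.000352), -0.89 for Tcf7 (0.000302), -0.40 for Myc (0.0296) and -0.72 for Lef1 (0.0275). Znrf3 was no longer called in either setting (-0.16, adjusted p = 0.316, and -0.20, 0.249), and Axin2 took the other sign without being called (0.27, 0.341, and 0.10, 0.801).

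In culture, without a host, the line difference was above 0 for Notum, Tcf7, Myc, Znrf3 and Axin2 and below 0 for Lef1, and passed the test for Myc. Of 6 members tested, Myc rose in resistant culture, 0 fell and 5 did not pass, against 6.15% of 11201 genes higher and 8.04% lower (limma). The median log2 difference was 0.48 over the 6 members and -0.01 over all genes. Notum reached 1 TPM in 2 of 5 resistant cultures and in neither parental culture. It entered the test through the resistant cultures, where it is high, so its sign and its place in this median say little about direction. Myc was at 133, 140, 146, 176 and 177 TPM in resistant culture and at 91.3 and 114 TPM in parental culture, so the groups did not overlap, as in 33.6% of tested genes. Its log2 difference was 0.58 ± 0.16 (SE, limma adjusted p = 0.0444). The call ended with no filter (0.0644), median-of-ratios scaling (0.0596), array weights (0.0512) and 1 fit over all libraries (0.148), and on leaving out either parental culture or resistant culture 1, 3, 4 or 5 (adjusted p between 0.0512 and 0.274). Labels do not say that cultured libraries are separate cultures, so these p-values measure the spread between the libraries, which may be technical.

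Tcf7 was at 5.54, 9.71, 10.3, 13.2 and 14.6 TPM in resistant culture and at 5.77 and 5.92 TPM in parental culture. Replicate 2 of the resistant culture lay below both parental cultures and the other 4 lay above them. The log2 difference of 0.71 ± 0.32 was not called (SE, limma adjusted p = 0.171), and without that replicate it was 0.90 (0.0404). Znrf3 was at 13.1, 13.4, 14.04, 14.5 and 14.8 TPM in resistant culture and at 8.58 and 12.9 TPM in parental culture, a log2 difference of 0.38 ± 0.19 (adjusted p = 0.226). Lef1 was at 25.1, 25.3, 37.6, 52.6 and 53.9 TPM in resistant culture and at 34.3 and 63.8 TPM in parental culture (-0.34 ± 0.36, adjusted p = 0.577).

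Notum in resistant culture was high in a single library. It was at 13.5 TPM in replicate 1 of the resistant line, at 1.43 and 0.307 TPM in replicates 5 and 4 and listed at 0 in replicates 2 and 3, against 0.138 and 0.231 TPM in parental culture. Of the 5 resistant cultures, replicate 1 had the highest sums of endothelial (8.03 TPM), muscle (1.855 TPM), adipocyte (1.04 TPM), B cell and leukocyte markers. It had the lowest sums of T cell (0.242 TPM), skin and fibroblast (256 TPM) markers. Group medians were 1.40 TPM for endothelial and 735 TPM for fibroblast markers. The mitochondrial share of replicate 1 was the highest of the 5, at 8.08%. The part of these in its Notum level was not tested. The log2 difference of Notum, 0.86 ± 0.93, was not called (SE, limma adjusted p = 0.580). Axin2 was at 0.529, 0.626, 0.708, 1.01 and 1.35 TPM in resistant culture and at 0.291 and 1.15 TPM in parental culture (0.13 ± 0.32, adjusted p = 0.828). Rnf43 was listed at 0 in 4 of 5 resistant cultures and at 0.107 TPM in replicate 1, against 0.539 and 0.599 TPM in parental culture. Rnf43 did not reach the filter, and without it the log2 difference was -0.62 (limma adjusted p = 0.00258). As its values in culture lie near 0 TPM and depth is unknown, this p-value says little about the spread between libraries. Nkd1, Lgr5 and Sp5 were listed at 0 in all cultured libraries of both lines.

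**Figure D2:**
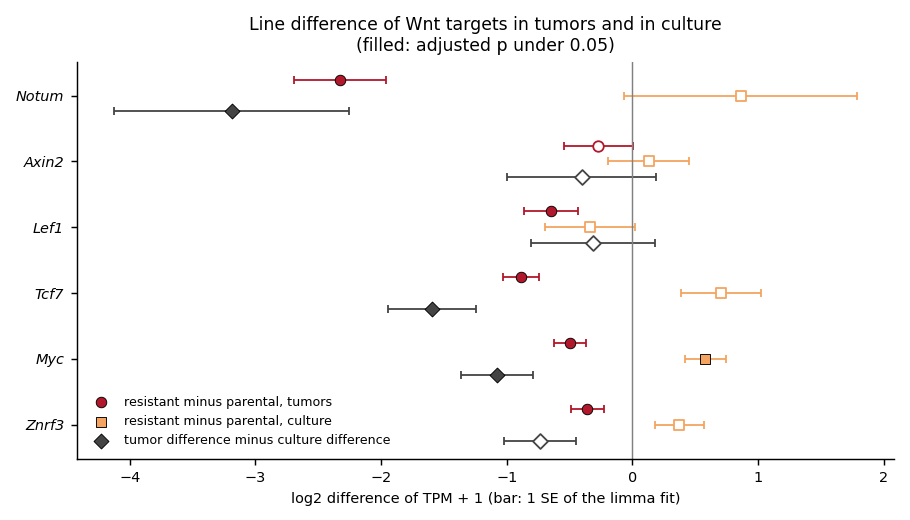
Log2 difference of TPM + 1 between the resistant and the parental line for the 6 members tested in both settings, in tumors (circles), in culture (squares) and tumor difference minus culture difference (diamonds). Bars are 1 SE of the limma fit and filled symbols have an adjusted p under 0.05. Of these 6, all but Lef1 lie below 0 in tumors and above 0 in culture, and Axin2 is called in neither. In tumors and in culture, Notum entered the test through the line where it is high.

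Whether the line difference differed between tumors and culture was tested as an interaction over all 32 libraries. Of 10 members tested, 3 had a lower line difference in tumors than in culture, 0 a higher one and 7 did not pass, against 1.61% of 15061 genes lower and 2.40% higher (limma). Nkd1, Lgr5 and Sp5 were listed at 0 in all cultured libraries, so their interaction is the tumor difference alone. Rnf43 was below 1 TPM in all cultured libraries and entered through the tumors. Notum reached 1 TPM in 11 of 13 parental tumors, 2 of 12 resistant tumors, 2 of 5 resistant cultures and neither parental culture. The count therefore says little about direction. The interaction was -1.60 ± 0.35 for Tcf7 (SE, limma adjusted p = 0.00370), -1.08 ± 0.28 for Myc (0.0209) and -3.19 ± 0.94 for Notum (0.0448). Znrf3 (-0.73 ± 0.29, adjusted p = 0.173), Axin2 (-0.40, 0.854) and Lef1 (-0.31, 0.864) did not pass. The interaction rests on the 2 parental cultures: Tcf7 had an adjusted p of 0.0713 without the second of them, and Myc 0.0501 without the first and 0.355 without the second. Notum lost its call on leaving out any of 19 of the 32 libraries, among them both parental cultures (adjusted p = 0.193 and 0.284) and resistant culture 1 (-2.50, 0.0828), and under a pseudocount of 0.1, no filter, quantile normalization and both GC settings (adjusted p between 0.0532 and 0.0767).

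Each line was then read against its own culture. Parental tumors had the highest mean of the 4 groups for Notum, Axin2, Tcf7, Myc, Nkd1, Rnf43, Znrf3 and Sp5, parental culture for Lef1 and resistant tumors for Lgr5. In the parental line, Notum, Tcf7, Myc and Znrf3 rose in tumors, so that 4 of 10 members tested were higher and 0 lower, against 16.1% of 14348 genes higher and 5.99% lower (limma). Notum, Nkd1, Lgr5, Rnf43 and Sp5 were below 1 TPM in both parental cultures and entered the test through the tumors alone, where they are high, so the count says little about direction. Notum in all 13 parental tumors was above both parental cultures, with a log2 difference of 2.55 ± 0.83 (SE, limma adjusted p = 0.0346). The same held for Tcf7 (1.24 ± 0.32, adjusted p = 0.00885) and Myc (1.35 ± 0.28, 0.00146), and such a lack of overlap was seen for 28.6% of tested genes. Znrf3 was above both cultures in 12 of 13 parental tumors (0.85 ± 0.28, adjusted p = 0.0342). Axin2 (1.17 ± 0.55, 0.140), Rnf43 (0.37 ± 0.37, 0.489) and Lef1 (-0.28 ± 0.38, 0.612) did not pass. These calls rest on 2 cultures as well: without the first, Myc was called and Notum (adjusted p = 0.247), Tcf7 (0.108) and Znrf3 (0.0810) were not, and without the second none was (0.197, 0.104, 0.421 and, for Myc, 0.0580).

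In the resistant line, Axin2 rose in tumors, 0 members fell and 4 of the 5 tested did not pass, against 35.3% of 12312 genes higher and 15.0% lower (limma). Axin2 reached 1 TPM in 11 of 12 resistant tumors and in 2 of 5 resistant cultures. It entered the test through the tumors, where it is high, so its call says little about direction. Axin2 in resistant tumors was above the resistant culture mean of 0.844 TPM in all 12 and above every resistant culture in 8. Its log2 difference was 0.77 ± 0.27 (SE, limma adjusted p = 0.0213), with the other sign under quantile normalization (-0.37, 0.274). The call ended without resistant culture 2 (0.0516) or 4 (0.0576). Myc (0.28 ± 0.12, adjusted p = 0.0679), Tcf7 (-0.36 ± 0.17, 0.0879), Lef1 (-0.59 ± 0.27, 0.0777) and Znrf3 (0.11 ± 0.14, 0.516) did not pass. Tcf7 was called lower in resistant tumors without resistant culture 2 (-0.55, 0.00583), Lef1 without resistant tumor 6 (-0.66, 0.0491) or resistant culture 1 (-0.73, 0.0465), and Myc higher without resistant tumor 2 (0.32, 0.0264) or resistant culture 1 (0.33, 0.0492). Nkd1 was above 0 in 11 of 12 resistant tumors, Sp5 in 11 and Lgr5 in 10, against 0 in all 5 resistant cultures, and no fold is given for them.

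Both of these comparisons moved with the scaling of the libraries. The median log2 difference of all genes was 0.21 in the parental and 0.18 in the resistant line, and -0.09 and -0.13 under quantile normalization. Calls were 2310 higher and 859 lower in the parental line and 1379 higher and 1500 lower with quantile normalization. In the resistant line they were 4342 higher and 1847 lower, against 2279 and 3577 with quantile normalization and 3694 and 2602 with median-of-ratios scaling, where the median was 0.06. With quantile normalization Myc was the only member called in the parental line, and Tcf7 (-0.79, limma adjusted p = 0.000736) and Lef1 (-0.76, 0.0287) were called lower in resistant tumors.

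Across tumors of a line, 10 pairs of members passed for r. None did after a straight-line fit on the GC index was taken off, as given below. The share of passing pairs among other genes was not computed, so the count does not set the members apart. Pearson correlations were computed for all 45 pairs of members in each line, 90 relations, with permutation p-values of 100000 resamples and adjustment over the 90. In parental tumors 4 pairs passed for r and 4 for both r and rho, all among Axin2, Nkd1, Sp5 and Znrf3. Nkd1 and Sp5 had r = 0.94 (rho = 0.85, permutation p = 2e-05 and 0.00051, adjusted p for r = 0.0018), and r was 0.91 without the 2 tumors farthest from the median of Nkd1. Axin2 and Sp5 had r = 0.88 (rho = 0.81, permutation p = 7e-05 and 0.00145, adjusted p = 0.0024), and r was 0.82 without the 2 farthest tumors. Lef1, Tcf7, Myc and Rnf43 were in no passing pair in either line, and Notum and Lgr5 were in none in parental tumors. In resistant tumors 6 pairs passed for r and 2 for both r and rho, led by Axin2 and Lgr5 at r = 0.91 (rho = 0.91, permutation p = 8e-05 and 0.00012, adjusted p = 0.0024), with r = 0.78 without the 2 farthest tumors. Among the other 5, Axin2 and Sp5 had r = 0.80 (rho = 0.62, permutation p = 0.0039 and 0.0343, adjusted p for r = 0.0374), which rests on the 2 farthest tumors (0.34 without them). Notum and Axin2, 1 of 8 relations set as a family of their own, had r = 0.80 in resistant tumors (rho = 0.74, permutation p = 0.00297 and 0.00774, adjusted p = 0.0238 and 0.0619) and r = 0.35 in parental tumors (rho = 0.26, permutation p = 0.244 and 0.385, adjusted p = 0.652 and 0.917), and the difference between the lines was not tested.

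Members were also set against the GC index, in 20 relations, of which 10 passed for r. The index was built from genes of these same tumors. The share of all genes that pass with it was not computed, so this count does not set the members apart. Sp5 in parental tumors had r = 0.91 with the index (rho = 0.73, permutation p = 0.00019 and 0.00596, adjusted p for r = 0.0019). Nkd1 had r = 0.88 (rho = 0.85, permutation p = 9e-05 and 0.00042, adjusted p = 0.0018) and Axin2 r = 0.76 (rho = 0.58, permutation p = 0.0037 and 0.0408, adjusted p = 0.0185). Without the 2 farthest tumors these were 0.87, 0.84 and 0.64. In resistant tumors Sp5 had r = 0.77 (rho = 0.71, permutation p = 0.00351 and 0.0118, adjusted p = 0.0185) and 0.78 without the 2 farthest tumors. Notum passed in both lines, with r = 0.71 in resistant tumors (rho = 0.81, permutation p = 0.0106 and 0.00225, adjusted p for r = 0.0264) and r = 0.64 in parental tumors (rho = 0.60, permutation p = 0.0179 and 0.0326, adjusted p for r = 0.0358), or 0.60 and 0.48 without the 2 farthest tumors. Tcf7 did not pass, with r = 0.52 in resistant tumors (rho = 0.54, permutation p = 0.0842 and 0.0737, adjusted p = 0.140 and 0.123; r = 0.57 without the 2 farthest tumors) and r = 0.10 in parental tumors (rho = 0.01, permutation p = 0.732 and 0.993, adjusted p = 0.771 and 0.993). After a straight-line fit on the index was taken off, none of the 90 pairs passed; Axin2 and Sp5 in parental tumors had r = 0.71 (permutation p = 0.00622, adjusted p = 0.199).

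**Figure D3:**
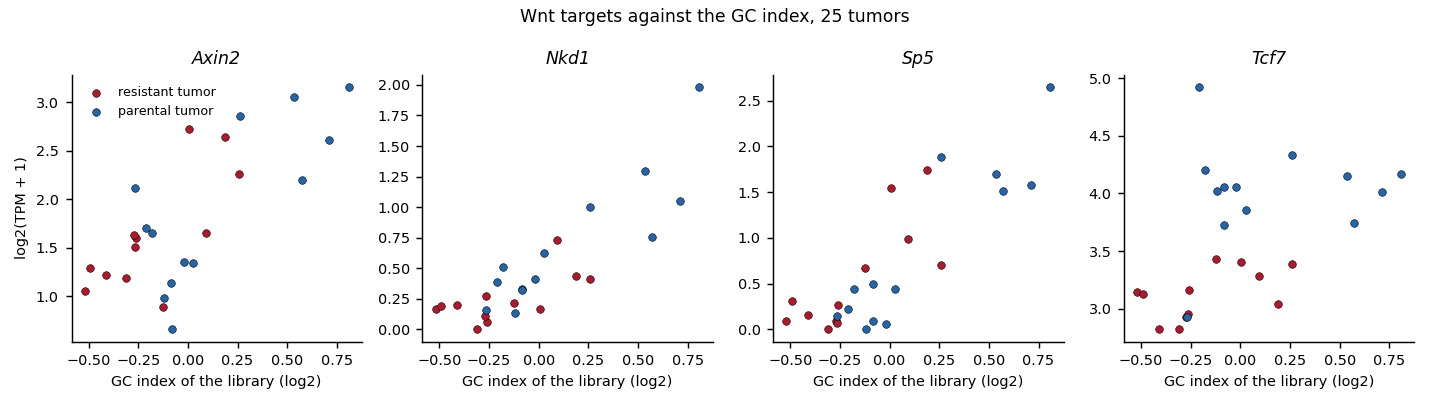
Level of Axin2, Nkd1, Sp5 and Tcf7 as log2(TPM + 1) against the GC index of the library (log2 units) in 12 resistant tumors and 13 parental tumors, a point per tumor. The 4 parental tumors with an index above 0.5 are high in Axin2, Nkd1 and Sp5, while Tcf7 is higher in parental than in resistant tumors over the shared range of the index except in parental tumor 10, at 6.59 TPM.

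Lef1 and Tcf7 are expressed in T cells, so both were set against a T cell score, the mean log2(TPM + 1) of 6 T cell markers. In culture the T cell markers summed to 0.242 to 1.77 TPM for the resistant line and 0 to 0.322 TPM for the parental line, where Lef1 and Tcf7 were still at 25.1 TPM or more and 5.54 TPM or more. Tcf7 and the score had r = 0.07 in resistant tumors (rho = 0.12, permutation p = 0.833 and 0.715, adjusted p = 0.945 and 0.938). In parental tumors r was -0.37 (rho = -0.07, permutation p = 0.211 and 0.821, adjusted p = 0.652 and 0.938), and 0.17 without the 2 farthest tumors. Lef1 had r = -0.17 in resistant tumors (rho = -0.18, permutation p = 0.590 and 0.573, adjusted p = 0.786 and 0.917) and r = -0.02 in parental tumors (rho = 0.20, permutation p = 0.945 and 0.505, adjusted p = 0.945 and 0.917). Without the 2 farthest tumors, r for Lef1 was -0.22 in resistant tumors (rho = -0.21) and 0.43 in parental tumors (rho = 0.51), values that were not tested. With the score as a covariate, Tcf7 (-0.94, limma adjusted p = 3.16e-05) and Lef1 (-0.67, 0.0237) remained lower in resistant tumors.

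**Figure D4:**
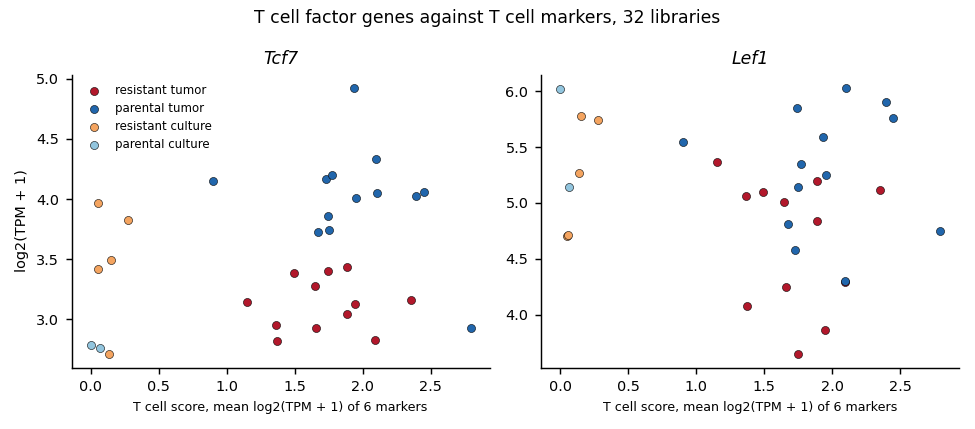
Level of Tcf7 and Lef1 as log2(TPM + 1) against the T cell score (mean log2(TPM + 1) of 6 markers) in all 32 libraries, a point per library. Cultured libraries lie at a score of 0.278 or less with Lef1 and Tcf7 expressed, and resistant tumors lie below most parental tumors in Tcf7 at like scores.

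Other genes of the pathway changed in both directions. Of 84 other genes in 6 lists, 45 were tested between tumors: 12 were higher in resistant tumors, 2 lower and 31 did not pass, with a median log2 difference of 0.10. Over all genes 16.3% were higher and 13.9% lower. In culture 42 were tested, 7 higher and 2 lower, against 6.15% and 8.04% of all genes. In the interaction 64 were tested, 0 higher and Ccnd1 the only 1 lower, against 2.40% and 1.61%.

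Among ligand and receptor genes, Wls, which carries Wnt ligands to the cell surface, was 191 ± 26.3 TPM in resistant tumors and 129 ± 32.2 TPM in parental tumors (0.58 ± 0.11, SE, limma adjusted p = 0.000137). Lrp6, the co-receptor, was 50.96 ± 9.56 TPM in resistant tumors and 28.3 ± 9.07 TPM in parental tumors (0.87 ± 0.15, 9.45e-05). It was also higher in culture, at 36.2 ± 3.40 TPM in the resistant line and 20.8 ± 3.44 TPM in the parental line (0.78 ± 0.16, 0.0144, with an adjusted p of 0.0833 with 1 fit over all libraries and 0.0888 without parental culture 1). These were the only called genes of 5 ligand genes and of 10 receptor genes tested in tumors, where 16.3% of all genes rose. Lgr4, an R-spondin receptor, was not called (0.46 ± 0.22, 0.108). Of 2 antagonists tested, the decoy Sfrp2 rose, at 5.84 ± 4.84 TPM in resistant tumors and 2.20 ± 2.47 TPM in parental tumors (1.15 ± 0.35, 0.0129), and it was listed at 0 in all cultured libraries.

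Of 11 relay and destruction complex genes tested in tumors, 4 rose and 1 fell, against 16.3% and 13.9% of all genes. Csnk1a1, the casein kinase that primes beta-catenin for degradation, was 226 ± 22.9 TPM in resistant tumors and 125 ± 29.4 TPM in parental tumors, with no overlap between the lines (0.88 ± 0.11, SE, limma adjusted p = 1.28e-06), as in 1.04% of tested genes. Apc, the scaffold of the complex, was at 28.7 ± 3.53 TPM in resistant tumors and 23.0 ± 3.33 TPM in parental tumors (0.32 ± 0.09, 0.00822). Gsk3a, a kinase of the same complex, fell to 39.0 ± 5.73 TPM in resistant tumors, against 55.7 ± 9.47 TPM in parental tumors (-0.50 ± 0.10, 0.000368). Ctnnb1, beta-catenin itself, was 175 ± 17.7 TPM in resistant tumors and 154 ± 13.9 TPM in parental tumors (0.18 ± 0.07, 0.0469), and Btrc, a subunit of the ligase that removes it, was also called (0.26 ± 0.10, 0.0402). The Ctnnb1 and Btrc calls ended on leaving out any of 15 and 14 of the 25 tumors (adjusted p up to 0.0857 and 0.0674), and with the GC index in the fit for Ctnnb1 (0.15, 0.106) and the T cell score in the fit for Btrc (0.22, 0.0858).

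Of 9 nuclear partners tested in tumors, 3 rose and 1 fell, against the same 16.3% and 13.9%. Bcl9, a co-activator that binds beta-catenin, was 56.9 ± 8.86 TPM in resistant tumors and 34.9 ± 7.89 TPM in parental tumors (0.71 ± 0.12, SE, limma adjusted p = 6.81e-05). The co-repressor genes Tle1 (0.53 ± 0.12, 0.00148) and Tle4 (0.35 ± 0.10, 0.0107) also rose. Tcf7l2, a further TCF factor, fell to 47.7 ± 11.2 TPM in resistant tumors, against 61.5 ± 14.7 TPM in parental tumors (-0.35 ± 0.13, 0.0464), a call lost once the GC index entered the fit (-0.25, 0.176), with no filter (0.0725) and on leaving out any of 16 of the 25 tumors. Of 8 other target genes tested in tumors, 2 rose and 0 fell, against the same shares. Wisp1, a secreted matrix-associated protein, was 50.6 ± 14.7 TPM in resistant tumors and 25.9 ± 15.8 TPM in parental tumors (1.14 ± 0.27, 0.00215), and in culture 13.6 ± 3.24 TPM in the resistant line and 5.13 ± 2.55 TPM in the parental line (1.28 ± 0.30, 0.0208, with an adjusted p of 0.0508 with no filter, 0.121 with 1 fit over all libraries and 0.195 without parental culture 2). Cd44, a hyaluronan receptor, was higher in resistant tumors (0.29 ± 0.08, 0.00919), with no call under the GC covariate (0.16, 0.0876).

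Ccnd1, cyclin D1, was not called between tumors, at 309 ± 43.2 TPM in resistant and 302 ± 42.1 TPM in parental tumors (0.04 ± 0.09, SE, limma adjusted p = 0.792). In culture it was 349 ± 17.8 TPM in the resistant line and 203 ± 2.04 TPM in the parental line (0.78 ± 0.11, 0.00285). The interaction was -0.74 ± 0.19 (0.0157), and 0.0835 and 0.168 without the first and the second parental culture.

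**Figure D5:**
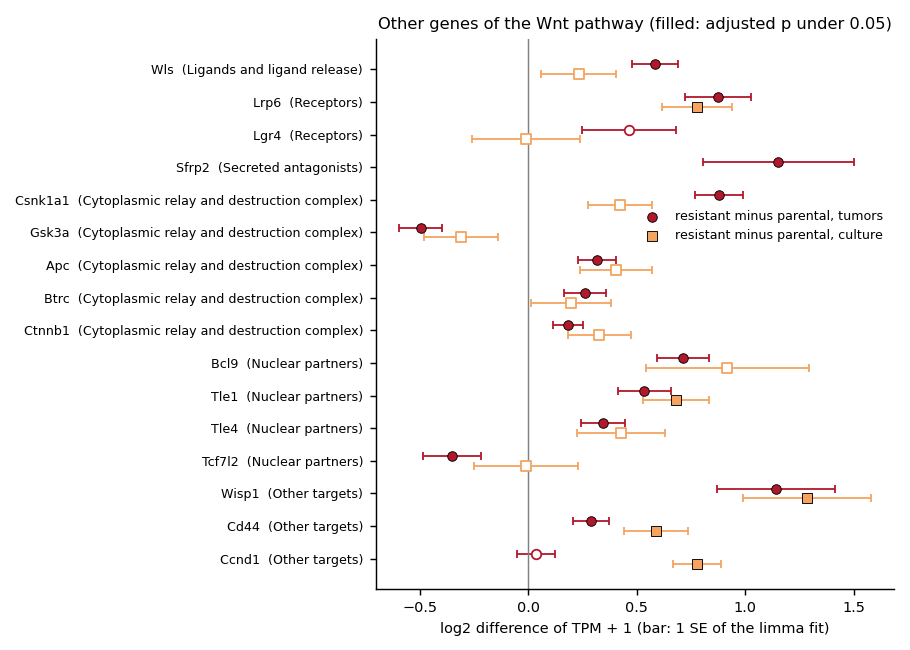
Log2 difference of TPM + 1 between the resistant and the parental line for 16 named genes of the rest of the pathway, with their list, in tumors (circles) and in culture (squares). Bars are 1 SE of the limma fit and filled symbols have an adjusted p under 0.05. Most named genes lie above 0 in tumors, and Gsk3a and Tcf7l2 lie below.

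Genes whose levels ran most like a member's across the 25 tumors, after the mean of each line was taken off, were sought among the 9762 genes that averaged 5 TPM or more over tumors. They are descriptions over tumors that share their library preparation, and no test was made. The GC index was not taken off here, although Axin2 and Notum passed with it in both lines and Znrf3 in parental tumors. Its part in these likenesses was not tested. For Notum these included the integrin gene Itgb4 (r = 0.89) and the laminin gene Lama5 (0.86). Lrp5, a Wnt co-receptor, led for Axin2 (0.87), followed by Plekho1 (0.87) and Zfp652 (0.86). Lef1 ran most like the interferon-induced genes Ifit1 (0.71) and Ifit1bl1 (0.60) and like Zfp235 (0.61). Tcf7 ran most like the lamin gene Lmnb2 (0.70), the transcription factor gene Sox2 (0.69) and the mitochondrial ATPase gene Atad3a (0.66). For Myc they were Mybbp1a (0.75), Tbrg4 (0.73) and the mitochondrial folate enzyme gene Mthfd2 (0.73), and for Znrf3 the histone methyltransferase gene Kmt5a (0.89), the factor E2f8 (0.86) and Hirip3 (0.85).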

How the data were processed

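Poly(A) RNA of 12 resistant tumors, 13 parental tumors, 5 resistant cultures and 2 parental cultures was measured. RNA extraction (Qiagen, with DNase) and library preparation (KAPA RNA HyperPrep) are given per the labels' protocols. The authors deposited TPM by gene symbol for 32 libraries. STAR and the build GRCh38, a human build although the symbols are mouse, are named per the submitters' processing notes. The quantifier and annotation are not given in the sources used here. Each TPM column sums to the same total, so depth is unknown and precision rests on the spread between libraries. Groups came from the labels, which pair no samples; replicate numbers follow the order of deposition.

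limma 3.58.1 (R 4.3.3) was run on log2(TPM + 1), with moderation along the intensity trend, on the libraries of a comparison alone, or on all of them for the interaction. Tests were two-sided and p-values were Benjamini-Hochberg adjusted over every gene tested. Genes entered at 1 TPM in a number of libraries equal to the size of the smaller group. The code was tested on simulated data. Correlations used permutation p-values (Python 3.11.15, scipy 1.17.1). GC content came from GENCODE mouse transcripts, for 98.6% of 10046 genes at a mean of 5 TPM or more in tumors.

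The members and lists were chosen with earlier results of these data known. Named genes were the members, up to 4 called genes per pathway list with the lowest adjusted p between tumors, 6 fixed pathway genes (Ctnnb1, Apc, Tcf7l2, Lgr4, Lrp6 and Ccnd1) and the 3 genes most like each member with a mean of at least 1 TPM over tumors, of which 1 is not reported here. Alternatives were quantile normalization, array weights, median-of-ratios scaling, a pseudocount of 0.1, a filter at 5 TPM or none, 1 fit over all libraries, a rank-sum test, Ptprc or the T cell score in the fit, and leaving out each library. Adjusting for the GC index, or leaving out parental tumors with an index above 0.5, in the interaction and the tumor against culture comparisons, and all relations beyond the 8 fixed were added after seeing the data.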

Additional observations from a re-analysis of the deposited data

Results flagged for a closer look

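In resistant culture, where 22 groups of 4 to 10 samples were examined over named genes and chance marks about 1 in 20 groups, 1 library stood apart for 4 genes. Notum was highest in replicate 1, at 13.5 TPM, and Rnf43 was highest in the same replicate, at 0.107 TPM. Rnf43 was listed at 0 in the other 4, so any value above 0 would have stood apart, and this mark carries no information. Csnk1a1 had a lowest value of 153 TPM against a group median of 196 TPM. Tle1 had a highest value of 40.9 TPM against a group median of 33.3 TPM.

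The line difference in tumors differed from that in culture by the interaction term of limma for 4 named genes, at -3.19 for Notum (adjusted p = 0.0448), -1.60 for Tcf7 (0.00370), -1.08 for Myc (0.0209) and -0.74 for Ccnd1 (0.0157).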

How the results depend on the processing

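Of 1858 values recomputed under alternatives, 1646 kept their direction and side of the threshold, 169 lost and 27 gained a call or a count, and 16 changed sign (the causes were not tested). Between tumors, Notum, Tcf7, Myc and Lef1 kept their calls in every alternative in which they were tested; Notum did not pass the filter at 5 TPM. Axin2 took the other sign with GC adjustment (0.27, and 0.12 in the interaction) and without parental tumors of high index (0.10), and Ccnd1 with Ptprc as a covariate (-0.0242) and between -0.0014 and 0.0715 on leaving out a library. In culture, members called higher numbered 0 with no filter, median-of-ratios scaling, array weights or 1 fit over all libraries, and members called lower 1 with no filter. Leaving out a library gave 0 to 2 higher, Axin2 between -0.24 and 0.50 and Lef1 between -0.77 and 0.10.

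For parental tumors against parental culture, 1 member was higher with quantile normalization, where Rnf43 was -0.64, and 2 with GC adjustment; leaving out a library gave 0 to 4, with Lef1 between -0.72 and 0.16. For resistant tumors against resistant culture, 2 members were higher with no filter, array weights or GC adjustment, and 0 with a filter at 5 TPM, quantile normalization or 1 fit. Members lower there numbered 2 with quantile normalization or median-of-ratios scaling and 1 with array weights, Axin2 was -0.37 and Znrf3 -0.19 with quantile normalization, and Znrf3 was -0.0101 with median-of-ratios scaling. Leaving out a library gave 0 to 2 higher and 0 to 1 lower. In the interaction it gave 0 to 3 lower, Lef1 between -0.75 and 0.13 and Rnf43 between -0.065 and 0.16. The relation of the T cell score with Lef1 in resistant tumors was 0.0053 with a pseudocount of 0.1.

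Over all genes, interaction calls were 835 higher and 560 lower with array weights, 599 and 383 with the GC covariate and 108 and 134 without parental culture 2, against 361 and 243. Culture calls, 689 and 901, were 231 and 582 without parental culture 1, 302 and 276 without parental culture 2 and 421 and 610 without resistant culture 4. Parental tumor against culture calls were 1040 and 366, and 1377 and 250, without the first and second parental culture. Where a parental culture is left out, the other is assumed to vary like the other groups. Low members near 0 TPM carry little information, and depth is unknown. No paired analysis was possible because the labels pair no samples and the replicate numbers follow only the order of deposition.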

Other observations

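Parental tumor 10 was the lowest parental tumor for Notum (0.269 TPM), Tcf7 (6.59 TPM), Myc (133 TPM) and Znrf3 (12.6 TPM), and it had the highest T cell score of all tumors, 2.79. It also had the lowest GC index of the parental tumors, -0.267, and their highest sum of skin and hair follicle markers, 15.2 TPM. The part of these in its levels was not tested. This tumor was singled out after its values were seen. Without it, the log2 difference between resistant and parental tumors was -2.53 for Notum (limma adjusted p = 1.87e-06).

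Of 180 relations between marker scores and members within a line, 1 passed for Pearson's r: Sp5 and the B cell score in parental tumors had r = 0.85 (rho = 0.71, permutation p = 0.00024 and 0.00825, adjusted p = 0.0432 and 0.147), and r was 0.72 without the 2 farthest tumors. Sp5 in parental tumors also had r = 0.91 with the GC index, and the part of the index in this relation was not tested.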
